A study of Mus musculus with 30 samples.

Results

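The odorant receptor (OR) genes of mouse chromosomes 13, 16 and 19 were taken from the table of OR names that accompanies the study, which lists 51 of them. Of these, 48 had counts, out of 564 OR genes counted in all, and 9 lie on chromosome 13, 10 on chromosome 16 and 29 on chromosome 19. Olfr1367, Olfr262 and Olfr1455-ps1 had no counts. All 48 genes had values in all 30 mice and were informative in every comparison, with a median of 100 normalized counts or more in the wild-type mice. Of the 48 symbols, 47 are current in the RefSeq gene table, and Olfr174 is found there as an older name of Olfr175.

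OR genes encode receptors of the G protein-coupled family that bind odorants in the cilia of olfactory sensory neurons. A mature neuron expresses a single allele of a single OR gene, so that in RNA of the whole mucosa the level of a receptor depends on how many neurons chose its gene and on how much RNA each of them holds. These cannot be told apart here. Most OR genes lie in clusters, and enhancer elements in or near a cluster, such as the H and P elements, act on the choice of its genes.

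The deposited design sets mutant mice against wild-type mice for the expression of OR genes, and the study used these counts to work out tests of such differences. RNA of the whole olfactory mucosa was counted with NanoString probes, 1 μg of total RNA per lane and 1 mouse in each lane, and all mice were 21 days old. The 5 groups hold 6 mice each. Wild-type mice of strain 129S6/SvEvTac (4 females and 2 males) and homozygous ΔOlfr7Δ mice of an inbred 129SvEv background (2 females and 4 males), which lack an OR gene cluster of another chromosome, shared a cartridge. Mice double homozygous for the ΔP (Berry) and ΔH alleles (ΔHxΔP, 1 female and 5 males), which lack the P and H elements, shared a second cartridge with the wild-type mice of their companion strain (3 females and 3 males). Wild-type mice of the companion strain of ΔH (4 females and 2 males) filled a separate cartridge. These last 3 groups have a mixed C57BL/6J x 129SvEv background, so that different mice can carry different strain alleles at a given gene. Wild-type mice took the first lanes and mutants the last on both cartridges that held a mutant strain, and an effect of the lane cannot be told apart from that of the genotype.

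Raw counts summed over OR genes lay between 618163 and 1013430 in a lane (median 814694), and no pair of lanes held identical counts. The labels of the mutants fit the genes they lose. Olfr969, in the deleted cluster, had 26.7 to 37.6 scaled counts in ΔOlfr7Δ mice against 2623 to 2919 in 129 wild-type mice. Olfr1507, which depends on the H element, had 31.0 to 52.8 in ΔHxΔP mice against 4995 to 11467 in mixed wild-type mice. The background of a lane, 2 SD above the mean of its 8 negative controls, lay between 32.4 and 56.2 scaled counts, and all 48 receptors stood above it in all groups. Omp, Cnga2, Adcy3, Gnal and Ano2, markers of mature olfactory sensory neurons, are the 5 reference genes that set the scale, and they were strongly counted.

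Each OR gene is read by a capture and a reporter probe that lie side by side on its RNA. Most of the 96 probes of these receptors, 82, have 50 bases, and the rest are shorter, down to 38. In a gene family of high sequence similarity the specificity of a probe matters, so the longest run of bases that each shares with a probe of any other OR gene is set in capitals in the sequences printed here. That run had a median of 12 bases over the 48 receptors and ranged from 10 to 20. It reached 15 bases in 5 of them. Only unbroken runs were scored. Olfr1465 and Olfr1469, of family MOR202 on chromosome 19, are shown first because their capture probes hold the long shared runs, of 20 bases with Olfr894 and of 19 bases with each other. The match of these capture probes goes on past the 19 bases, since both read cacactgctgcata on the other side of a differing base.
Olfr1465 capture probe: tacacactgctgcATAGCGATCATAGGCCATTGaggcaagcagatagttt
Olfr1465 reporter probe: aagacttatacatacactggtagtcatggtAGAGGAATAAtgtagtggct
Olfr1469 capture probe: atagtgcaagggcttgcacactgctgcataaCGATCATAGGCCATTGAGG
Olfr1469 reporter probe: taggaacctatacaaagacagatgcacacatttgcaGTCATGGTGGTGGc
Olfr183, Olfr1443, Olfr202 and Olfr1450 are shown because they differed most between the backgrounds in either direction, and their probes share at most 13 bases with those of other OR genes.
Olfr183 capture probe: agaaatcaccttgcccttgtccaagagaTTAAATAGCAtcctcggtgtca
Olfr183 reporter probe: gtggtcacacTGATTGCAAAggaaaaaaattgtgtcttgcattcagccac
Olfr1443 capture probe: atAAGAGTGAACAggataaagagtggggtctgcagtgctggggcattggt
Olfr1443 reporter probe: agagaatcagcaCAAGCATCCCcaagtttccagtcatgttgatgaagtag
Olfr202 capture probe: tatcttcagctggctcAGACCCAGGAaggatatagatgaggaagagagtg
Olfr202 reporter probe: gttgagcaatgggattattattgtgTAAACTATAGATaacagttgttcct
Olfr1450 capture probe: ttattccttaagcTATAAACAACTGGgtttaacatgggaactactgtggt
Olfr1450 reporter probe: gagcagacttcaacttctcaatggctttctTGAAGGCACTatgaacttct
Olfr11 and Olfr1364 on chromosome 13, whose counts moved in opposite ways, and Olfr1495 and Olfr1496 on chromosome 19, whose counts moved together, follow.
Olfr11 capture probe: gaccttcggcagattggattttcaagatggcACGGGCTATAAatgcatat
Olfr11 reporter probe: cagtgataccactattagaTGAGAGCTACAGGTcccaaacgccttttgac
Olfr1364 capture probe: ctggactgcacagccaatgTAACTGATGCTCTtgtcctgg
Olfr1364 reporter probe: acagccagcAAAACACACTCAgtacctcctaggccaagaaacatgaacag
Olfr1495 capture probe: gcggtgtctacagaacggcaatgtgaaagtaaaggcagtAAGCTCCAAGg
Olfr1495 reporter probe: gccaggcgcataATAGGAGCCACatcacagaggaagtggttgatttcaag
Olfr1496 capture probe: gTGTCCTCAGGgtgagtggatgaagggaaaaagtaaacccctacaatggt
Olfr1496 reporter probe: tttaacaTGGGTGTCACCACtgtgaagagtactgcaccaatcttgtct
No probe of these 4 genes shares more than 14 bases with a probe of another OR gene. Probes were compared only with probes, not with the full sequences of other OR genes. The sequences of the 129 and C57BL/6J strains at the probe sites were not compared here.

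By the family names of the OR table, chromosome 13 holds 7 receptors of MOR256 with 1 each of MOR130 (Olfr1366) and MOR209 (Olfr466). Chromosome 16 is more varied, with 3 receptors of MOR183 (Olfr183, Olfr186 and Olfr187) and 1 each of 7 other families. On chromosome 19, 13 receptors of MOR202, from Olfr1443 to Olfr1469, lie between 9 receptors from Olfr1419 to Olfr1441 and 7 from Olfr1490 to Olfr1500. The families beside them are MOR266 with 5 receptors, MOR239 with 4, MOR215 with 3, MOR212 with 2, and MOR211 and MOR127 with 1 each.

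The receptors were counted over a wide range in every group. In 129 wild-type mice the group means of the 48 genes had a median of 1277 scaled counts, against 1109.8 over the 549 OR genes with values in all lanes. On chromosome 13 the highest was Olfr1364, with 4265 ± 168 scaled counts (SD, n = 6), and the lowest Olfr1535, with 443 ± 14.9. Olfr166 on chromosome 16 had 5560 ± 326 (SD, n = 6) and Olfr161 445 ± 36.7. On chromosome 19 Olfr1463 was the highest with 4157 ± 270 (SD, n = 6) and Olfr1499 the lowest with 226 ± 30.4. Each gene has its own pair of probes, so a difference between genes is one of counts and not of RNA molecules.

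**Figure D1:**
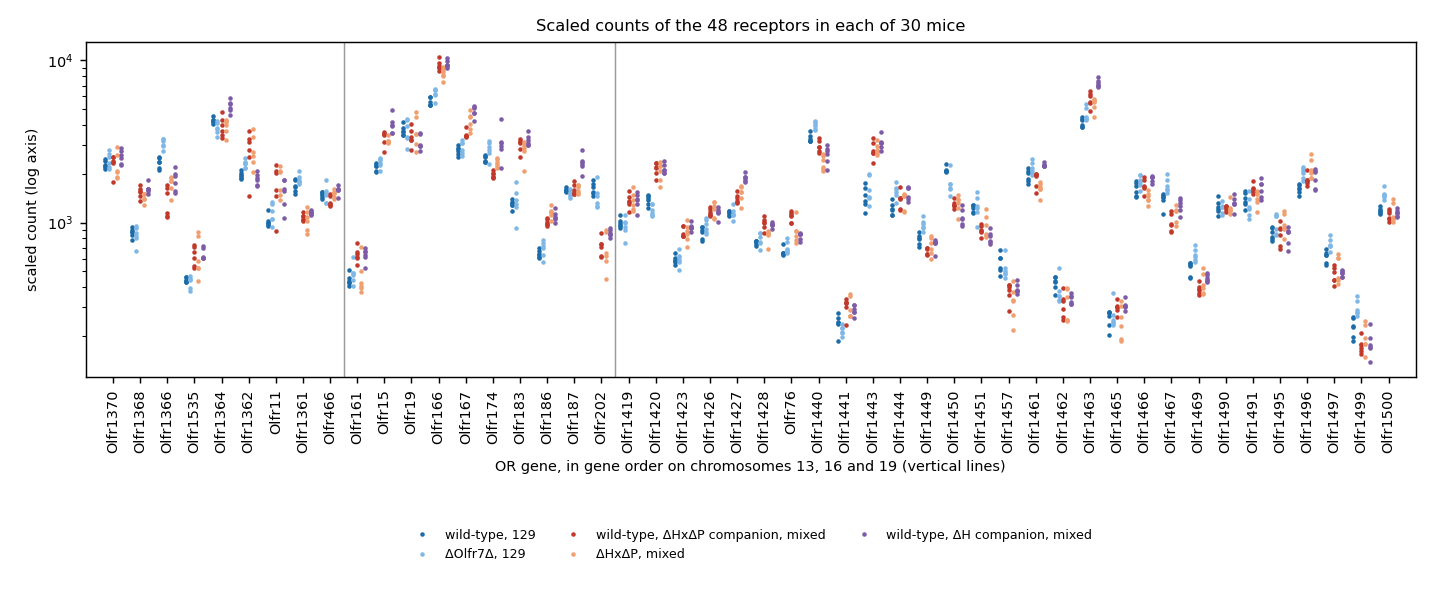
Scaled counts (log axis) of the 48 receptors in each of the 30 mice, in gene order along chromosomes 13, 16 and 19, with 1 point per mouse and colours for the 5 groups. Olfr166, at 5277 to 5961 in 129 wild-type mice and 8658 to 10486 in mixed wild-type mice, is the highest, and Olfr1441, Olfr1465 and Olfr1499 lie low in all groups.

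Which receptors differ between the genetic backgrounds was read from the 129 wild-type mice against the mean of both mixed wild-type groups. Most did. Of the 48 receptors, 14 were higher and 25 lower in 129 mice, which is 81.2% called at an adjusted p under 0.05, and 77% of all 549 OR genes tested were called, 37.3% as higher and 39.7% as lower. The share is close to that of all OR genes, and the median log2 change was -0.19 over the 48 and 0.00 over all. On chromosome 16, 7 of 10 receptors were lower and 2 higher, on chromosome 13 3 of 9 lower and 2 higher, and on chromosome 19 15 of 29 lower and 10 higher. Groups did not overlap for 22 receptors, 17 lower and 5 higher, and over all OR genes tested they did not for 38.3%, 24.8% lower and 13.5% higher. The calls here and below are those of limma on log2 values, adjusted over all OR genes tested.

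Olfr183 differed most. Its scaled counts were 1176, 1308 and 1395 (lowest, median and highest) in 129 wild-type mice and 2543, 3120.4 and 3686 in the 12 mixed wild-type mice, a log2 difference of -1.26 (SE 0.056, adjusted p = 4.85e-16) or 2.39-fold lower. Every 129 mouse lay below every mixed mouse, and the gap between the groups was wider than the range of the 129 mice. Its cluster neighbours of the same family were lower too, Olfr186 by a log2 change of -0.71 without overlap and Olfr187 by one of -0.28 with overlap. Olfr166, the receptor with the highest counts, had 5277, 5439 and 5961 in 129 mice and 8658, 9297 and 10486 in mixed mice, a log2 difference of -0.77 (SE 0.046, adjusted p = 1.3e-13). Both groups were again apart.

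Olfr202, the only measured receptor of family MOR182, ran the other way. It had 1464, 1602 and 1844 scaled counts in 129 mice and 611, 822 and 921 in mixed mice, 2.07-fold higher (log2 difference 1.05, SE 0.067, adjusted p = 6.29e-13). All 6 of the 129 mice lay above all 12 mixed mice. Besides Olfr202, Olfr19 was higher on chromosome 16, by 0.19 on the log2 scale with overlap, and Olfr174 was not called.

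On chromosome 19, among the 9 receptors from Olfr1419 to Olfr1441, 8 were lower in 129 mice and 1, Olfr1440, higher, with a median log2 change of -0.45. The 4 receptors of MOR239, Olfr1423 and Olfr1426 to Olfr1428, were all lower and none overlapped. In the next stretch, MOR202, 7 of 13 were higher and 5 lower, with a median of 0.17. Within MOR202 the directions were grouped by neighbour only in part, with Olfr1443 and Olfr1444 lower and the next 4 measured, Olfr1449 to Olfr1457, higher. Of the 7 receptors from Olfr1490 to Olfr1500, 2 were higher and 2 lower.

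Olfr1443 and Olfr1450, both of MOR202, stood at the opposite ends. Olfr1443 had 1153, 1420 and 1763 scaled counts in 129 mice and 2321, 3017 and 3644 in mixed mice, a log2 difference of -1.04 (SE 0.080, adjusted p = 1.98e-11). Olfr1450 had 2049.9, 2086 and 2311 in 129 mice and 953, 1237 and 1410.2 in mixed mice, 1.79-fold higher (log2 difference 0.84, SE 0.058, adjusted p = 2.99e-12). For both genes the groups were apart, in opposite directions.

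On chromosome 13, Olfr1368 had 785, 872 and 942 scaled counts in 129 mice and 1352, 1586.5 and 1843 in mixed mice, a log2 difference of -0.86 (adjusted p = 7.64e-13). Olfr1361, of the same family MOR256, had 1502, 1669 and 1846 against 1028, 1124 and 1202, a log2 difference of 0.59 (adjusted p = 1.56e-10). Neither gene's groups overlapped. Olfr1366 was higher by as much, 0.59 (adjusted p = 5.89e-06), but its highest mixed mouse, at 2202, lay within the 129 range of 2101 to 2528. With either mixed wild-type group alone as the control, 14 receptors were higher and 23 lower against the ΔHxΔP companion mice and 12 higher and 29 lower against the ΔH companion mice. Of all OR genes, 39.3% were higher and 36.1% lower against the former, and 31.2% higher and 42.9% lower against the latter. All 129 mice were on 1 cartridge and the mixed mice on others, so that background and cartridge cannot be told apart.

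**Figure D2:**
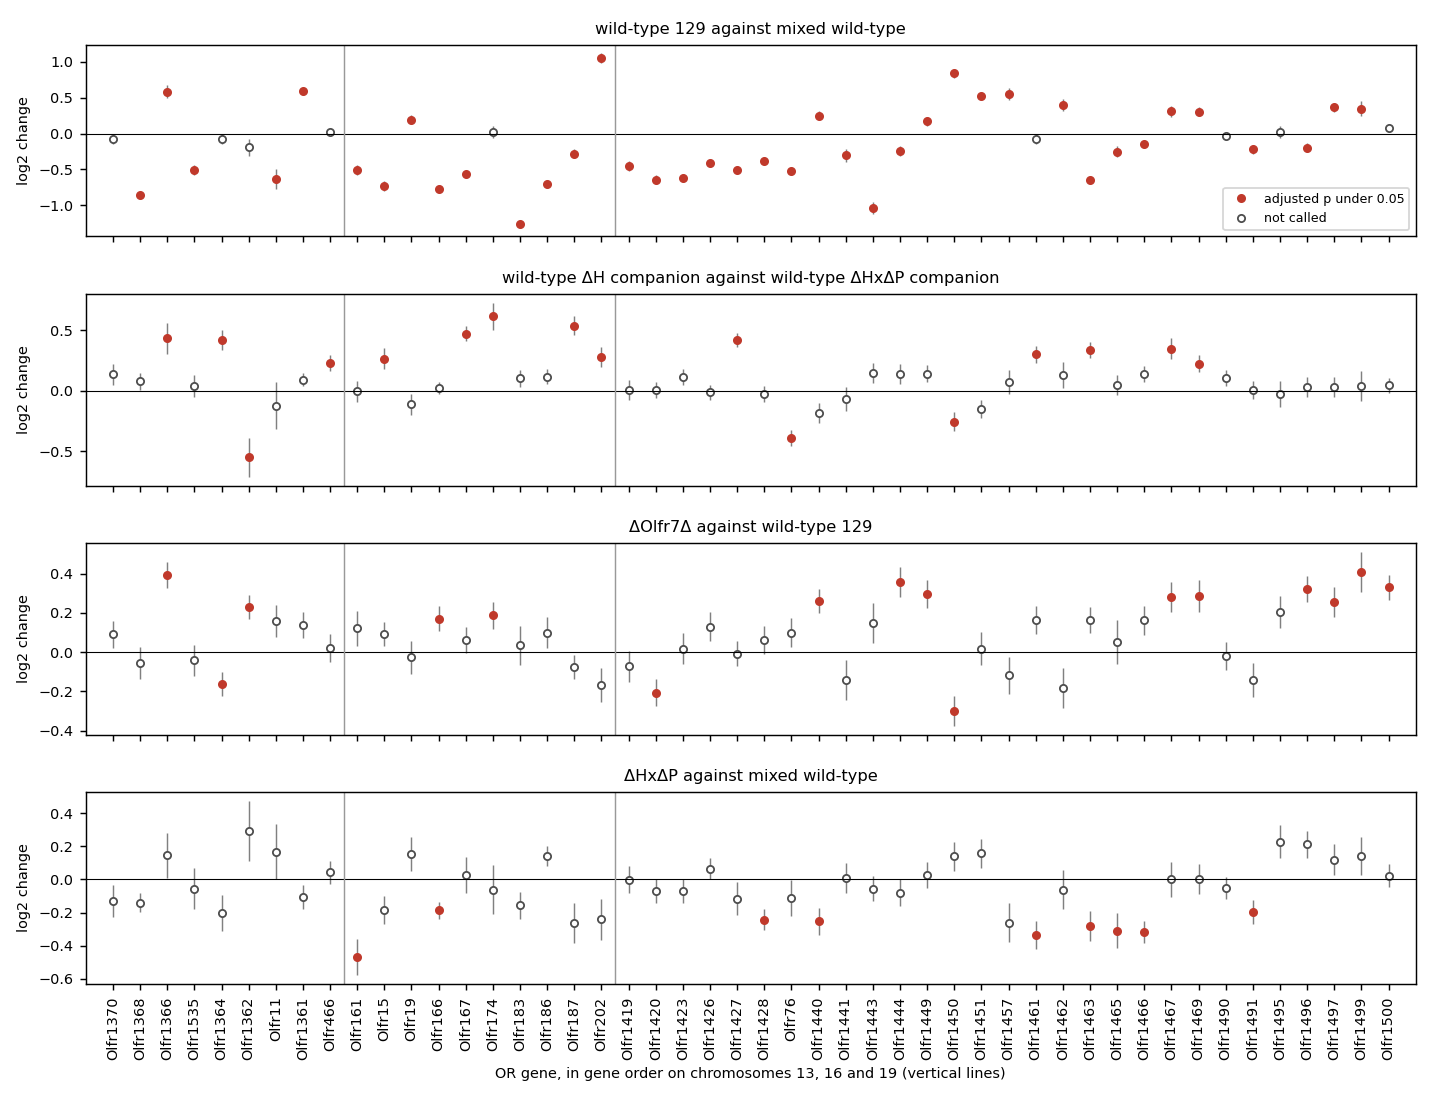
Log2 change of each of the 48 receptors in 4 comparisons (rows), with bars of 1 standard error and filled points at an adjusted p under 0.05. In the uppermost panel, changes run from -1.26 for Olfr183 to 1.05 for Olfr202, and the other 3 panels have narrower axes, with all changes between -0.55 and 0.62.

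The wild-type mice of the ΔH companion strain were then set against those of the ΔHxΔP companion strain, which share the mixed background. Of the 48 receptors, 13 were higher and 3 lower in the ΔH companion mice, 33.3%, and 40% of the 557 OR genes tested were called, 29.3% as higher and 10.8% as lower. The share of the receptors was thus near that of all OR genes. With counts scaled over all OR genes by TMM, the split was 10 higher and 6 lower (19.4% and 20.5% of all OR genes), and the median change of all OR genes moved from 0.10 to 0.00. The mice were on separate cartridges, so colony and cartridge cannot be told apart.

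Receptors of chromosome 16 made up 5 of the 13 that were higher, among 10 measured, and none was lower. Olfr174 had 2166, 3035 and 4323 scaled counts in ΔH companion mice and 1889, 1951 and 2115 in ΔHxΔP companion mice (log2 difference 0.62, SE 0.112, adjusted p = 0.000379). Olfr187, 212 kb away on the same chromosome, had 1927, 2332 and 2801 against 1494, 1557 and 1806 (log2 difference 0.54, SE 0.079, adjusted p = 6.38e-05). Olfr167 had 4212, 4918 and 5208 against 3375.5, 3412 and 3903 (log2 difference 0.47, SE 0.060, adjusted p = 1.49e-05). In all 3 the groups were apart, and the mice of the ΔH companion strain spread more widely than those of the other strain for Olfr174. Its SD on the log2 scale was 0.32 there and 0.06 in the ΔHxΔP companion mice.

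On chromosome 13, Olfr1366 and Olfr1364 were higher by 0.43 (adjusted p = 0.011) and 0.42 (adjusted p = 0.000854), and Olfr1362, which lies between them and Olfr11, was lower by a log2 change of -0.55 (adjusted p = 0.0114). Olfr1362 had 1677, 1860.4 and 2075 scaled counts in the ΔH companion mice and 1458, 2981 and 3686 in the ΔHxΔP companion mice, so that 1 mouse of the latter lay below all others. On chromosome 19, 5 were higher and 2 lower. Olfr1427 was higher by 0.42 (adjusted p = 4.28e-05) and Olfr1463 by 0.34 (adjusted p = 0.000584), both without overlap. Olfr76, of family MOR215, had 756, 852.5 and 858 against 990.4, 1109 and 1179.5 (log2 difference -0.39, SE 0.066, adjusted p = 0.000218), with the groups apart. Olfr1450 was lower by a log2 change of -0.25 (adjusted p = 0.0134), with overlap.

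For the deletion of the Olfr7 cluster, 13 of the 48 receptors were higher in ΔOlfr7Δ mice than in 129 wild-type mice and 3 were lower, 33.3%, while 35.5% of the 552 OR genes tested were called, 23.4% as higher and 12.1% as lower. None of the 48 lies on the chromosome that carries the deletion, and their share was near that of all OR genes. The median log2 change was 0.10 for the 48 and 0.06 for all. With counts scaled on the positive controls alone, 26 receptors were higher and 0 lower, against 51.3% and 7.43% of all OR genes, whose median was then 0.24. Under median-of-ratios scaling the split was 11 higher and 6 lower, against 19.6% and 18.5% of all. The groups differ in their make-up of females and males, and with sex as a covariate 17 of the 48 were higher and 2 lower, against 28.3% and 11.6% of all.

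Of the 13 higher receptors, 9 lay on chromosome 19. All 3 of MOR211 and MOR212 were higher, Olfr1499, Olfr1500 and Olfr1497, as was Olfr1496, so that 4 of the 7 receptors from Olfr1490 to Olfr1500 were higher and none lower. Olfr1499 had 266.5, 285 and 351 scaled counts in ΔOlfr7Δ mice and 185, 228 and 260 in 129 wild-type mice (log2 difference 0.41, SE 0.103, adjusted p = 0.00258). Olfr1500 had 1384, 1475 and 1674 against 1123.5, 1183 and 1270.5 (log2 difference 0.33, SE 0.064, adjusted p = 0.000147). The groups were apart for both. In MOR202, 4 were higher and 1 lower (7 and 1 with sex as a covariate), and Olfr1444 rose from 1106, 1208 and 1402 to 1326, 1587 and 1780.4 (log2 difference 0.36, SE 0.075, adjusted p = 0.000367), with overlap.

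On chromosome 13, Olfr1366 had 2770.3, 3088 and 3290.4 scaled counts in ΔOlfr7Δ mice and 2101, 2374 and 2528 in wild-type mice (log2 difference 0.39, SE 0.065, adjusted p = 1.84e-05). All mutants lay above all wild-type mice, and the gene stayed called under the 3 other scalings, with changes of 0.34 to 0.57. Among the lower receptors, Olfr1450 had 1457, 1684 and 2263.5 against 2049.9, 2086 and 2311 (log2 difference -0.30, SE 0.078, adjusted p = 0.00324), and replicate 4 of the mutants alone lay within the wild-type range. Olfr1420 was lower by a log2 change of -0.21 (adjusted p = 0.0199, and 0.0512 without replicate 3 of the mutants) and Olfr1364 by one of -0.16 (adjusted p = 0.0436, and 0.0574 with sex as a covariate). On the positive controls alone the change of Olfr1364 was 0.02 (adjusted p = 0.902), and leaving out any of 8 of the 12 mice, 1 at a time, ended its call. No lower receptor was free of overlap, and 9 of the higher ones were, against 7.25% of all OR genes tested that were apart and lower and 11.1% that were apart and higher.

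In ΔHxΔP mice, 9 of the 48 receptors were lower than in the 12 mixed wild-type mice and none was higher, 18.8%, against 34.1% of the 557 OR genes tested, 10.2% as higher and 23.9% as lower. The groups differ in their make-up of females and males, and these counts were fitted without sex. The count of lower receptors rests on the controls and the scale. Against the 6 wild-type mice of the same cartridge alone, 6 were lower and 3 higher, with 26.8% of 553 OR genes called, and against those of the other cartridge alone 14 were lower and 2 higher, with 32.5% of all OR genes lower and 12.7% higher. With counts scaled by TMM 5 were lower and 4 higher (20.5% and 18.9% of all), and by the median of ratios 4 were lower and 6 higher (18.5% and 22.1%). Of the 9, 7 lie on chromosome 19, 4 of them in MOR202, and 2 on chromosome 16. No receptor of chromosome 13 was called, and for none of the 9 were the groups apart, while 7.9% of all OR genes tested were apart and lower.

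Olfr161 had the strongest fall. It had 373, 414 and 703 scaled counts in ΔHxΔP mice and 523, 637 and 745 in mixed wild-type mice (log2 difference -0.47, SE 0.109, adjusted p = 0.00236). Of the 6 mutants, 5 lay below all wild-type mice, and the highest lay among the upper wild-type values. The change was -0.47 as well against the wild-type mice of the same cartridge (adjusted p = 0.0173) and stayed called under the 3 other scalings. In MOR202, Olfr1466 had 1267, 1425 and 1581.5 against 1459.5, 1819 and 1930.5 (log2 difference -0.32, SE 0.065, adjusted p = 0.000777), and it too kept its call on the same cartridge, at -0.25 (adjusted p = 0.0256). Olfr1461 was lower by a log2 change of -0.33 (adjusted p = 0.00512) and Olfr1465 by one of -0.31 (adjusted p = 0.0324). On the same cartridge their changes were -0.18 (adjusted p = 0.113) and -0.28 (adjusted p = 0.136). Scaled counts of Olfr1465 were low, 186, 247 and 328 in mutants and 261, 303 and 349 in wild-type mice. Without replicate 2, 3 or 4 of the mutants Olfr1465 was no longer called (adjusted p = 0.0676, 0.107 and 0.105). The mixed wild-type mice enter 3 of the 4 comparisons and the 129 wild-type mice 2, so that these are not independent.

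Whether neighbouring receptors varied together from mouse to mouse was described by Pearson's r of the log2 scaled counts, after the group mean had been subtracted. These values entered the choice of the 3 chromosomes and are given without a test. Pairs share lanes and the scaling of each lane, and an r above 0 was common also between chromosomes. Over the 18 mice of mixed background, pairs of the 48 receptors on different chromosomes had a median r of 0.17 (641 pairs), and over the 12 mice of 129 background one of 0.19. Pairs of the other OR genes within 200 kb had medians of 0.40 and 0.41 (1737 pairs).

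On chromosome 19, the 70 pairs within 200 kb had a median r of 0.47 in mixed mice, with 57 of 70 above 0, and of 0.39 in 129 mice, with 66 of 70 above 0. Of the 1737 pairs of other OR genes within 200 kb, 83.6% and 79.5% were above 0. Under TMM 45 and 42 of the 70 were above 0, and under the median of ratios 45 and 43. Of the 1737 pairs, 1241 and 1121 were above 0 under TMM, and 1236 and 1131 under the median of ratios. In the single groups of 6 mice the median ran from 0.40 in ΔHxΔP companion mice to 0.59 in ΔOlfr7Δ mice. These medians are near those of the other OR genes within 200 kb. Under TMM the medians of chromosome 19 were 0.14 in mixed and 0.37 in 129 mice, and those of the other OR genes 0.23 and 0.20. In mixed mice chromosomes 4, 7 and 10 had higher medians, of 0.65, 0.52 and 0.54, so that chromosome 19 does not stand alone.

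On chromosome 13, the 16 pairs within 200 kb had a median r of 0.25 in mixed mice and 0.07 in 129 mice (-0.11 without replicate 6 of the ΔOlfr7Δ mice). The low median hides strong values of either sign, from -0.78 to 0.73 in mixed mice, with 10 pairs above 0. Chromosome 16 has only 5 pairs within 200 kb, with a median r of -0.09 in mixed mice and 0.33 in 129 mice, too few to describe the chromosome. Under TMM the median of chromosome 16 in mixed mice was 0.20, above the 0.14 of chromosome 19 and the -0.16 of chromosome 13, so that the order of the chromosomes in mixed mice depends on the scaling. In 129 mice chromosome 19 had 0.37 under TMM, and pairs of the 48 on different chromosomes had 0.07.

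**Figure D3:**
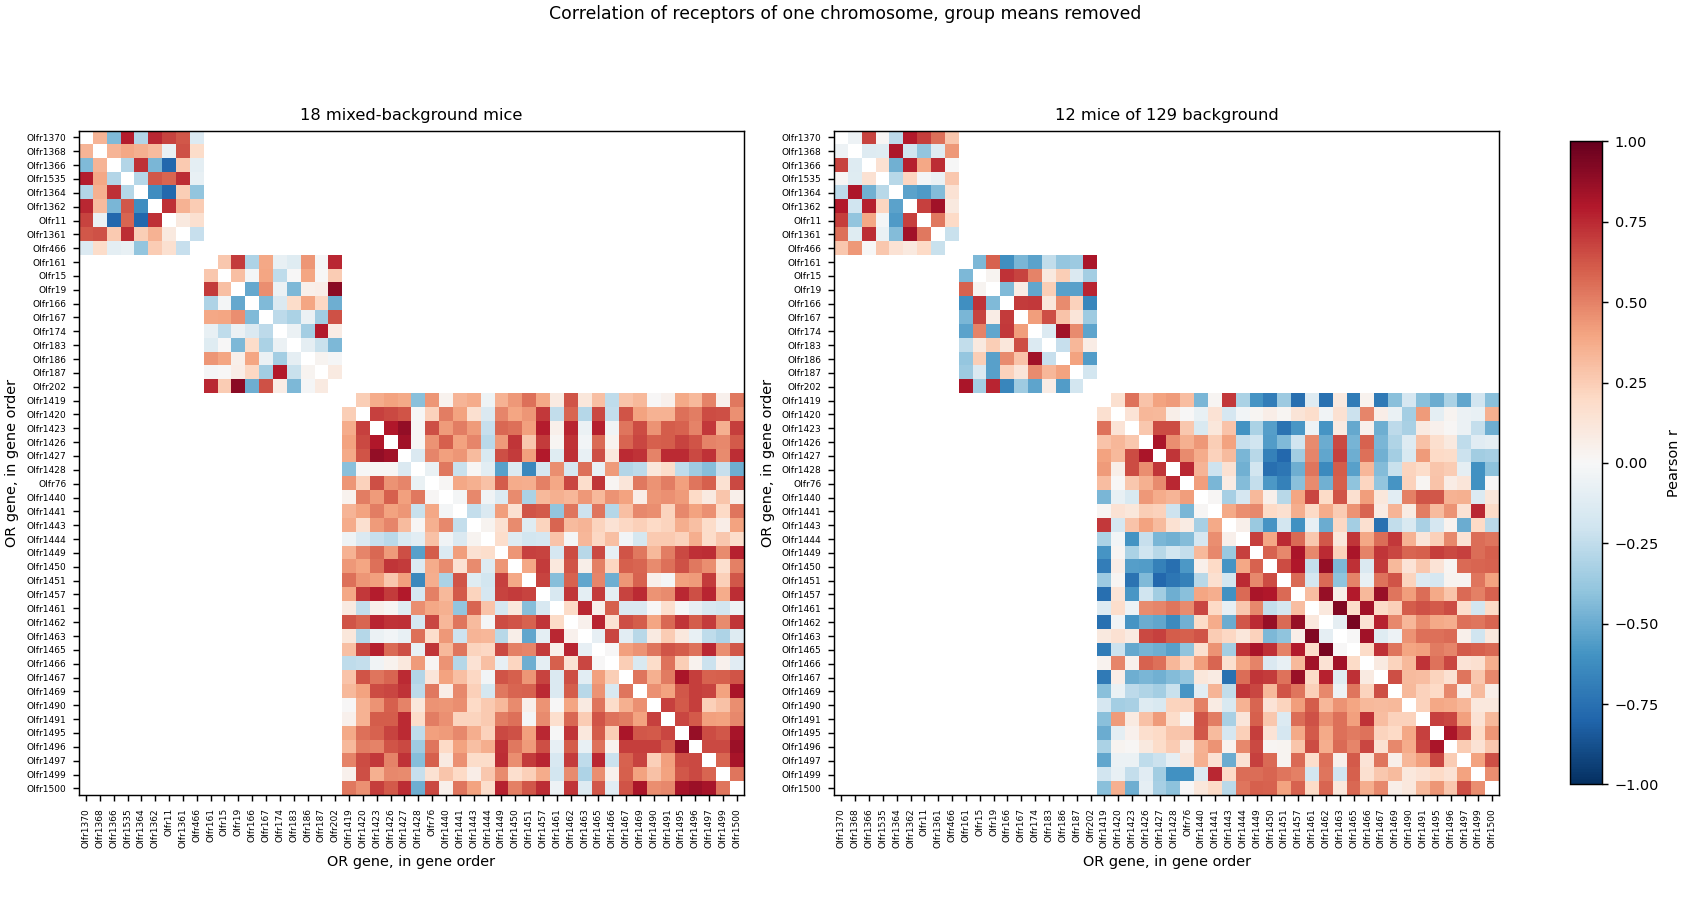
Pearson's r of every pair of receptors on the same chromosome, in gene order, in 18 mixed-background mice (left) and 12 mice of 129 background (right), with red above 0 and blue below 0. Chromosome 19, the largest block, is mostly red on the left, while on the right the pairs of Olfr1419 to Olfr1441 with MOR202 have a median of -0.16, and chromosome 13 holds red and blue pairs side by side.

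On chromosome 13 receptors of the cluster fell into sets that moved against each other over the pooled mixed mice. Olfr1366 and Olfr1364, 36.5 kb apart, rose and fell together (r = 0.73), as did Olfr1362 and Olfr11, 27.5 kb apart (r = 0.73, and 0.47 without replicate 1 of the ΔHxΔP companion mice), whereas Olfr1364 and Olfr11 had an r of -0.78 and Olfr1366 and Olfr11 one of -0.78. The counts of single mice show it. Replicate 1 of the ΔHxΔP companion wild-type mice had 888 scaled counts of Olfr11 and 1458 of Olfr1362, the lowest of its group for both, and 4777 of Olfr1364 and 1708 of Olfr1366, the highest. Replicates 2 to 4 had 2035 to 2254 of Olfr11 and 1089.7 to 1149 of Olfr1366. In the ΔH companion mice the pairs Olfr1366 with Olfr1364 and Olfr1362 with Olfr11 did not move together. Replicate 6 there had the highest count of Olfr1364, 5846, and the lowest of Olfr1366, 1530. Olfr1362 was lowest in that mouse too, at 1677, but Olfr11 was lowest in replicate 5, at 1070.5. Without that replicate 6, Olfr1366 and Olfr1364 had an r of 0.89 over the mixed mice. Olfr11 and Olfr1362 had the largest SDs of the 48 within the mixed wild-type groups, 0.50 and 0.47 on the log2 scale in ΔHxΔP companion mice, where Olfr1366 had 0.31, against 0.12, 0.07 and 0.11 in 129 wild-type mice.

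The opposite movement of Olfr1364 and Olfr11 had an r below 0 in all 5 groups, from -0.96 in ΔHxΔP companion mice to -0.53 in ΔH companion mice, and was -0.61 in 129 wild-type mice. Over the 129 mice it was -0.57 (-0.35 without replicate 4 of the ΔOlfr7Δ mice), but 0.22 with counts scaled on the positive controls alone. Olfr1366 and Olfr1364 had an r of -0.48 in 129 mice (-0.28 without replicate 5 of the ΔOlfr7Δ mice), but 0.65 on the positive controls alone. Olfr1366 and Olfr11 had 0.39 (0.60 without replicate 1 of the ΔOlfr7Δ mice, 0.25 without replicate 2 of the 129 wild-type mice), but -0.18 under TMM. For these pairs the sign in 129 mice thus depends on the scaling. Olfr1362 and Olfr11 had 0.68 in 129 mice and stayed above 0 under the 3 other scalings in either background. Olfr1535 and Olfr1361, the pair of chromosome 13 with the highest r in mixed mice, 0.73 (0.40 under TMM), had -0.07 in 129 mice, and between -0.60 and 0.39 there under the other scalings.

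**Figure D4:**
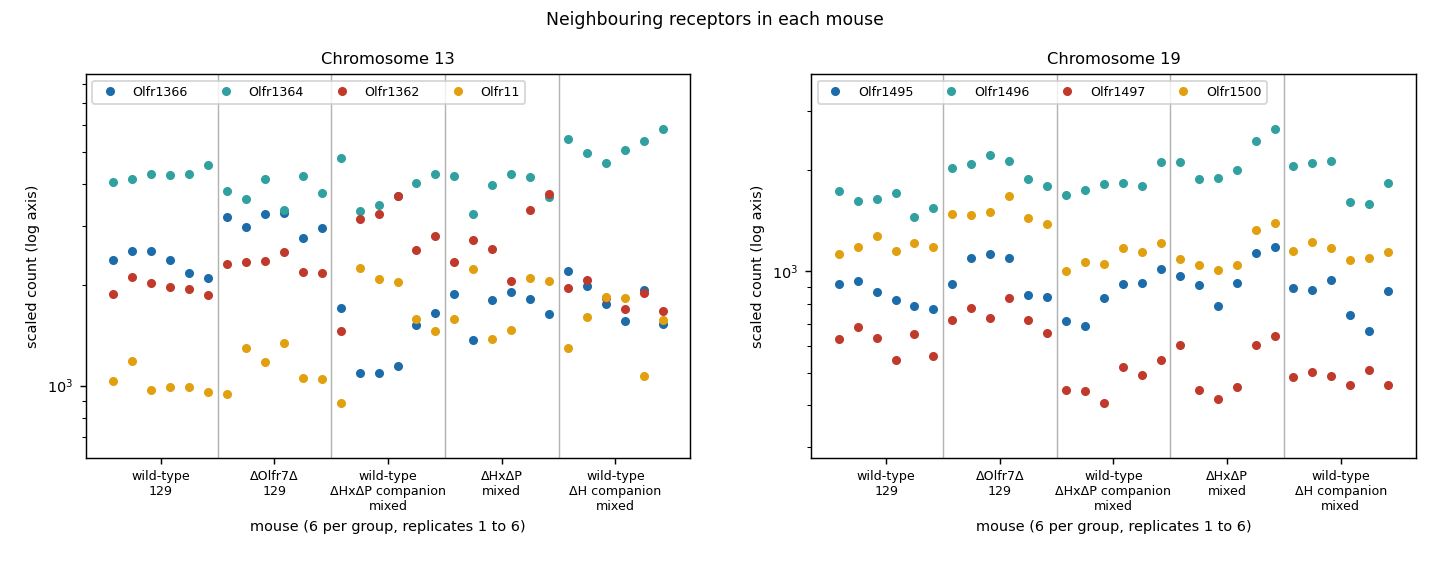
Scaled counts (log axis) of 4 neighbouring receptors on chromosome 13 (left) and 4 on chromosome 19 (right) in each mouse, 6 mice per group. In the ΔHxΔP companion mice on the left, Olfr11 runs from 888 to 2254 and is lowest where Olfr1364 is highest, at 4777, while on the right replicates 5 and 6 of the ΔHxΔP mice are the highest of their group for Olfr1495, Olfr1496 and Olfr1500.

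On chromosome 19 the 3 pairs of highest r in mixed mice were of receptors in the first and the last stretch. Olfr1423 and Olfr1427, of MOR239, had an r of 0.88 in mixed mice and 0.65 in 129 mice (0.35 without replicate 2 of the ΔOlfr7Δ mice), and Olfr1495 and Olfr1496, 12.3 kb apart and of different families, had 0.87 and 0.82. Scaled counts of Olfr1496 in ΔHxΔP mice ran from 1876 to 2647 and those of Olfr1495 from 791.5 to 1181, with replicates 5 and 6 the highest for both. These same mice stood above their group in the other OR genes too, by medians of 0.09 and 0.17 on the log2 scale, and in chromosome 19 by 0.16 and 0.18. All 21 pairs within Olfr1490 to Olfr1500 had an r above 0 in either background, with medians of 0.62 and 0.37. Olfr1496 and Olfr1500 had 0.86 in mixed mice and 0.27 in 129 mice, where it was 0.01 without replicate 6 of the ΔOlfr7Δ mice, 0.44 without replicate 1 of the wild-type mice and -0.05 under TMM.

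Within MOR202 some receptors moved together closely in both backgrounds. Olfr1461 and Olfr1463, 69.2 kb apart, had an r of 0.76 in mixed mice (0.64 without replicate 5 of the ΔHxΔP mice) and 0.93 in 129 mice, and Olfr1462 and Olfr1465 had 0.76 and 0.95. In the ΔH companion mice, Olfr1461 varied little (SD 0.035 on the log2 scale) and did not follow Olfr1463. Replicate 6 there had the highest count of Olfr1461, 2371, and the lowest of Olfr1463, 6905. These pairs are interleaved along the chromosome, and the lowest r within 200 kb, -0.43 in mixed mice (-0.13 without replicate 5 of the ΔHxΔP mice), was that of Olfr1451 and Olfr1461. Olfr1465 and Olfr1469, whose capture probes share an unbroken run of 19 bases and match further past a differing base, had 0.45 and 0.53. In mixed mice their r was -0.07 under TMM and 0.17 without replicate 6 of the ΔHxΔP mice. In 129 mice it was -0.05 on the positive controls alone. The median over all 78 pairs of MOR202 was 0.24 in mixed mice and 0.43 in 129 mice.

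The decline with distance on chromosome 19 differed between the backgrounds. In mixed mice the median r was 0.47 for 24 pairs within 50 kb, 0.63 for 20 pairs at 50 to 100 kb and 0.43 for 26 pairs at 100 to 200 kb. It was still 0.44 for the 129 pairs at 1000 to 2000 kb. In 129 mice it fell from 0.43 within 50 kb to 0.20 at 500 to 1000 kb and -0.06 at 1000 to 2000 kb. Under TMM the 129 medians were 0.37 within 200 kb and -0.10 at 1000 to 2000 kb. On the positive controls alone they were 0.46 and 0.50, without a decline. The mixed medians depend on the mice and the scaling, with 0.28 for the pairs at 1000 to 2000 kb in the 12 mixed wild-type mice alone and 0.13 for all 18 mice under TMM.

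**Figure D5:**
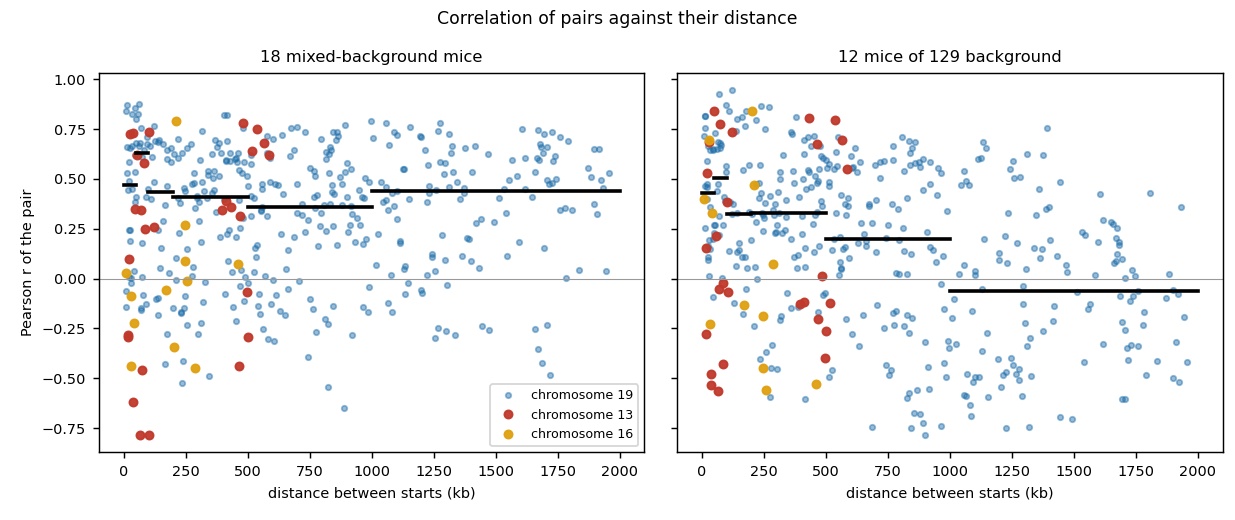
Pearson's r of each pair of receptors on the same chromosome against the distance between their gene starts (kb), up to 2000 kb, in mixed-background mice (left) and 129 mice (right), with black bars at the medians of the pairs of chromosome 19 in each range of distance. The medians stay between 0.36 and 0.63 on the left and fall to -0.06 on the right.

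Of the 117 pairs of the first stretch with MOR202, 52 had an r above 0 in 129 mice, with a median of -0.16, against 86 and a median of 0.37 in mixed mice. The values in 129 mice depend on the scaling, with a median of -0.30 under TMM but 0.37 on the positive controls alone. They also depend on replicate 4 of the ΔOlfr7Δ mice. This mouse had the lowest counts of its group for Olfr1419 (744), Olfr1427 (1021) and Olfr1428 (680.0) and the highest for Olfr1450 (2263.5), Olfr1451 (1533.5), Olfr1457 (673), Olfr1462 (524) and Olfr1465 (367). Within MOR202 Olfr1443 went the other way, with the lowest count of the group in this mouse, 1265. The first 9 receptors of this mouse, Olfr1419 to Olfr1441, stood 0.16 below the group on the log2 scale. Its last 7, Olfr1490 to Olfr1500, stood 0.16 above. Without it the median of those pairs was -0.02 and that at 1000 to 2000 kb was 0.07, while the pairs within 200 kb kept 0.34.

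On chromosome 16, where near pairs are few, the closest movement was between receptors far apart. Olfr19 and Olfr202, 42610.3 kb apart, had an r of 0.90 in mixed mice and 0.76 in 129 mice, between 0.83 and 0.90 in mixed mice under 3 other scalings. Olfr161 and Olfr202 had 0.75 and 0.81. Olfr202 was highest in replicates 5 and 6 of the ΔHxΔP mice, with 878 and 901 scaled counts against 452 to 646 in the others, and Olfr19 was highest in the same mice, with 4462 and 4832 against 2717 to 3494. Olfr174 and Olfr187, 212 kb apart, had 0.79 in mixed mice and 0.47 in 129 mice (0.25 without replicate 3 of the ΔOlfr7Δ mice). For the neighbours in between, r in mixed mice was -0.06 for Olfr174 and Olfr183, -0.09 for Olfr183 and Olfr186 and 0.03 for Olfr186 and Olfr187 (0.49 without replicate 1 of the ΔH companion mice). Under the 3 other scalings these were 0.16 to 0.23, 0.36 to 0.41 and 0.23 to 0.48. Olfr166 and Olfr167, 27.9 kb apart, had -0.44 in mixed mice (-0.25 without replicate 5 of the ΔHxΔP mice) and 0.70 in 129 mice, and in mixed mice 0.01 under TMM and 0.41 on the positive controls alone.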

How the data were processed

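NanoString raw counts of 30 mice, 6 in each of 5 groups, were used as the authors deposited them, 1 table for all lanes, with no scaling or background subtraction. Groups, sex and cartridge were taken from the sample labels. In Python 3.11.15 (numpy 2.4.6, pandas 2.3.3), counts were brought to a common scale over all lanes, first on the geometric mean of 6 positive controls and then on that of 5 reference genes. Informative OR genes (median in wild-type mice 100 normalized counts or more) were tested with limma 3.58.1 in R 4.3.3 (mean-variance trend) on log2(scaled count + 1), with Benjamini-Hochberg adjusted p under 0.05 over all OR genes tested. The same fit was also run on counts simulated from the means and SDs of these data with known changes. Noise was independent between genes there, and the outcome is not reported here. Chromosomes, families and distances were taken from the study's OR table, without a stated genome build, and symbols were matched to RefSeq. The genes and lists, by chromosome, family (MOR256, MOR202, MOR239, MOR215, MOR266, MOR211 and MOR212, MOR182 to MOR184) and stretch of chromosome 19, were chosen with earlier results of these data known. Named genes were, per comparison, up to 4 called higher and 4 lower with the largest changes, the highest and lowest of each chromosome, the 4 largest SDs and the 3 pairs of highest r per chromosome. Others were named after their values were seen. Alternatives were other scalings (TMM, median of ratios, positive controls alone), background subtraction, a pseudocount of 20, no filter, sex or cartridge as covariate, single wild-type groups, other pair definitions and leaving out each mouse. The mixed wild-type mice alone, and far pairs without 1 ΔOlfr7Δ mouse, were added after seeing the data. A count model was not run. The mice are separate animals, and each was read in 1 lane.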

Additional observations from a re-analysis of the deposited data

Results flagged for a closer look

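Among the 30 named receptors, 150 groups of 6 mice were screened for a mouse far from the others of its group, and 10 such values were found. Chance alone gives about 1 in 20 groups, or 7.5 here. Olfr1450 was highest in replicate 2 of the 129 wild-type mice, at 2311.0 scaled counts with the next mouse at 2117, and in replicate 4 of the ΔOlfr7Δ mice, at 2263.5 with the next at 1733.5. Olfr1465 reached 367.4 in that same ΔOlfr7Δ mouse, with the next at 269. Olfr167 had 3902.9 in replicate 1 of the ΔHxΔP companion wild-type mice (next 3481.5). Olfr76 had 733.2 in replicate 5 of the 129 wild-type mice (next 653) and 1169.6 in replicate 6 of the ΔHxΔP mice (next 890.5). Olfr183 was lowest in replicate 5 of the ΔHxΔP mice, at 2067.8, with the next at 2775. Olfr1368 had 1843.1 in replicate 1 of the ΔH companion wild-type mice (next 1612.5), Olfr11 had 1188.3 in replicate 2 of the 129 wild-type mice (next 1029), and Olfr1496 had 2114.6 in replicate 6 of the ΔHxΔP companion wild-type mice (next 1836.5).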

How the results depend on the processing

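Of the receptors called, 37 of 39 between the backgrounds stayed called under all 3 other scalings, as did 10 of 16 between the mixed wild-type groups, 11 of 16 in ΔOlfr7Δ mice and 3 of 9 in ΔHxΔP mice, and Olfr1364 reversed in ΔOlfr7Δ mice on the positive controls alone, with a log2 change of 0.0173. In ΔOlfr7Δ mice 26 receptors were called on the positive controls alone. With the scaling unchanged, 16 were called in ΔHxΔP mice against the wild-type mice of the other cartridge alone. The median r of chromosome 16 in mixed mice was 0.20 under TMM, 0.23 under the median of ratios and 0.36 on the positive controls alone, and in 129 mice -0.13 for adjacent receptors only. Chromosome 19 in mixed mice had 0.13 under the median of ratios, and chromosome 13 in 129 mice 0.63 on the positive controls alone. The cause of these differences was not tested. When each mouse was left out in turn, the number called ranged from 13 to 19 in ΔOlfr7Δ mice, from 6 to 12 in ΔHxΔP mice, from 15 to 17 between the mixed groups and from 38 to 41 between the backgrounds. The median r ranged from 0.13 to 0.32 (chromosome 13), -0.25 to -0.06 (chromosome 16) and 0.40 to 0.52 (chromosome 19) in mixed mice, and from -0.11 to 0.24, 0.20 to 0.41 and 0.34 to 0.47 in 129 mice. In the other 31 counts under alternatives the total called changed little, but its split into higher and lower could shift, as in ΔHxΔP mice under TMM. The other 45 medians moved by less than the SD over their pairs, which is wide. Among these, in mixed mice under TMM, the median of chromosome 13 went from 0.25 to -0.16. That of chromosome 19 went from 0.47 to 0.14. No paired analysis was possible because the replicate numbers only name the mice and pair none. edgeR and DESeq2 were not run. Counts near 200, as for Olfr1465 and Olfr1499, are the least precise, and intervals from counting error were not computed.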
